A study of Caenorhabditis elegans with 4 samples.

Results

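EFL-1 sites that lie close together as pairs of narrow peaks were examined in Caenorhabditis elegans at the first larval stage (L1). EFL-1 binding had been mapped by ChIP-seq (sequencing of immunoprecipitated chromatin), in which DNA bound to a precipitated protein is sequenced and enriched stretches are called as peaks. A peak was taken as paired when it was narrower than 1000 bp and the next or previous peak on the chromosome, also narrower than 1000 bp, lay less than 1000 bp away from edge to edge. The members were thus chosen by the positions and widths of called peaks, which rest on the same enrichment as their strength. The rule found 815 paired peaks among the 5334 peaks of the authors' combined list, or 15.3%. They formed 440 adjacent pairs in 375 runs. Of the other peaks, 4101 were narrow with no close narrow neighbour and are called unpaired here, and 418 were 1000 bp wide or more.

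The series held 2 ChIP samples, each with its own peak list, and 2 input samples of chromatin set aside before precipitation. The worms were labelled hermaphrodite, wild type and L1 larva, and were grown at 26 degrees C on plates of E. coli HB101. Samples were taken from synchronized populations, so each value is an average over many larvae and all their cells. EFL-1::GFP is named in the series title and anti-GFP antibodies in the protocol, but the samples are named N2 and "Ab" and their genotype is wild type. The labels therefore do not settle whether the antibody was against EFL-1 or against GFP. The only measurement of a peak was its q-value, the authors' p-value corrected for multiple testing. Peak strength below means −log10 of that q-value. The number of reads behind the lists is unknown.

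EFL-1 is an E2F transcription factor of the worm. E2F factors bind DNA together with a DP partner (DPL-1 in the worm), and a retinoblastoma protein (LIN-35 in the worm) can attach to them and turn the bound genes down. In worms these proteins are known for their roles in the cell cycle, in vulval development and in germline gene expression. A peak is a stretch enriched in sheared fragments rather than a binding site at base resolution, so neighbouring peaks may mark separate sites or parts of a broader bound stretch.

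Paired peaks came in short runs. Of the 375 runs, 321 held 2 peaks, 46 held 3, 5 held 4 and 3 held 5, and 78.8% of paired peaks were in runs of 2. Runs of 2 had a median length of 1563 bp from the first start to the last end, and the longest run measured 4648 bp. The gap between partners ran from 202 to 998 bp, with a median of 588 bp, and the midpoints of partners lay a median of 1074.5 bp apart. Gaps showed no preferred size within these limits. Each step of 100 bp from 200 bp upward held between 42 and 69 of the 440 pairs. No 2 peaks of any width lay less than 201 bp apart in the combined list, 200 bp in the replicate 1 list and 201 bp in the replicate 2 list, and the sources used here do not say whether the authors' calling joins closer stretches.

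At the edges of the rule, the pairs with the widest gaps were at chromosome III 7708942 to 7708992 and 7709991 to 7710463 (all positions are on WormBase WS220), 998 bp apart, and at chromosome IV 2927269 to 2927390 and 2928388 to 2928834, 997 bp apart. Their strengths were 3.65 and 72.2 for the first pair and 2.40 and 76.1 for the second. Just outside were narrow neighbours 1002 bp apart at chromosome IV 2774449 to 2774969 and 2775972 to 2776339, with strengths of 43.5 and 23.9, and 1004 bp apart at chromosome III 4236214 to 4236573 and 4237578 to 4238137, with strengths of 5.44 and 49.1. The widest paired peaks measured 997 bp (chromosome II 5377768 to 5378764, strength 3.40) and 995 bp (chromosome V 1197002 to 1197996, strength 217). The narrowest peaks left out by width alone measured 1004 bp (chromosome III 1142524 to 1143527, strength 147) and 1008 bp (chromosome I 8223665 to 8224672, strength 42.1). Strong peaks stood on both sides of each limit.

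Paired peaks were on the whole weaker and slightly wider than unpaired ones. Median strength was 9.64 for paired peaks and 12.5 for unpaired peaks, with the middle 50% from 4.09 to 31.9 for paired peaks and from 4.48 to 39.6 for unpaired peaks. The ranges overlapped almost completely, from 2.00 to 218 for paired peaks and from 2.00 to 285 for unpaired peaks. Applying the same rule to each replicate list gave medians of 9.15 for paired and 11.1 for unpaired peaks in replicate 1, and of 8.81 for paired and 12.2 for unpaired peaks in replicate 2. That is 8.98 ± 0.24 for paired and 11.7 ± 0.81 for unpaired peaks (SD, n = 2 lists). Median width was 454 bp for paired and 420 bp for unpaired peaks. In each of 4 groups of narrow peaks of equal size by strength, the median width of paired peaks was the larger, with 342 against 317 bp in the weakest group and 582.5 against 543 bp in the strongest. Very narrow peaks, under 100 bp, made up 2.45% of paired peaks (20 of 815) and 1.88% of unpaired peaks (77 of 4101), and none of them was found in both replicate lists. All these values come from the peak calling that chose the paired peaks, and no test was run on them, so they are given as descriptions throughout.

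The lower median hid a division within runs. The 375 strongest peaks of each run had a median strength of 27.4, above that of unpaired peaks, and the 440 other members a median of 4.93. Being the strongest of a run raises a value by construction. Paired peaks made up 10% of the 20 strongest combined peaks (2 peaks), 11% of the 100 strongest (11 peaks) and 9.4% of the 500 strongest (47 peaks), below their 15.3% of the whole list. The top ranks held many broad peaks, which the rule leaves out. Of the narrow peaks there, 40% (of 5) were paired among the 20 strongest and 20% (of 55) among the 100 strongest. The share was 12.9% (of 364) among the 500 strongest and 13.8% (of 797) among the 1000 strongest, against 16.6% of all narrow peaks. The strongest paired peak was at chromosome V 156031 to 157005, with a combined strength of 218, rank 14 of all peaks, and strengths of 146 in replicate 1 and 205 in replicate 2. The next, also on V (1197002 to 1197996), scored 217 in the combined list, 117 in replicate 1 and 189 in replicate 2.

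Partners were mostly unequal. The stronger partner of a pair had a median strength of 24.9 and the weaker a median of 4.41. The median ratio of stronger to weaker was 3.43, with the middle 50% of pairs from 1.73 to 9.58 and a largest ratio of 67.2. The ratio was 10 or more in 107 of 440 pairs (24.3%) and under 1.5 in 79 (17.95%). No list holds a peak with a q-value above 0.01, which keeps every strength at 2 or above and so limits the ratio for weak pairs. In 222 pairs (50.5%) just 1 partner belonged to the stronger 50% of all combined peaks, in 77 pairs (17.5%) both did, and in 141 (32.0%) neither did. The stronger partner was also the wider in 331 of 440 pairs, or 75.2%, where the same held for 73.1% of all adjacent narrow pairs at any distance. Median widths were 519 bp for the stronger and 395 bp for the weaker partner. The left partner was the stronger in 232 pairs, or 52.7% (95% interval 47.9 to 57.5), against 49.9% of all adjacent narrow pairs.

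**Figure D1:**
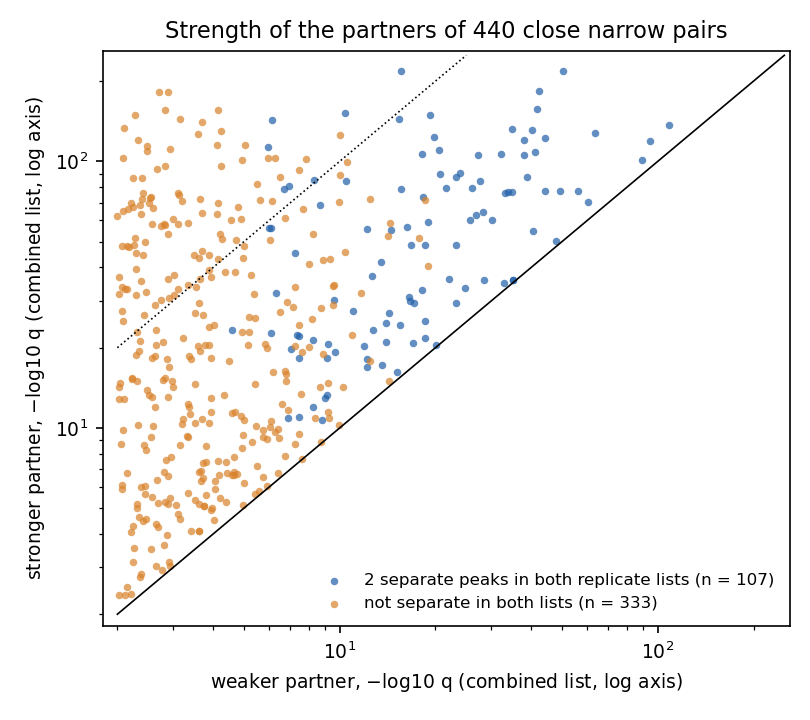
Strength (−log10 q, log axes) of the stronger partner against the weaker partner of the 440 pairs in the combined list, coloured by whether both partners were called as separate peaks in both replicate lists. The solid line marks equal strength and the dotted line a ratio of 10, above which 107 pairs lie; the 107 pairs seen as separate in both lists sit mostly where the weaker partner is itself strong.

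Unequal partners were also the rule for narrow neighbours lying farther apart. The median ratio was 3.43 for gaps under 1000 bp (440 pairs), 3.80 for gaps from 1000 to below 2000 bp (383 pairs), 3.25 for gaps from 2000 to below 5000 bp (776 pairs) and 3.29 for gaps from 5000 to below 10000 bp (741 pairs). The share of pairs with a ratio of 10 or more was 24.3%, 24.3%, 21.8% and 20.9% in the same order. The strengths of neighbours showed little correlation at any distance. Spearman's rho between left and right partner was -0.12 for the 440 close pairs and -0.01, 0.05 and 0.04 for the 3 wider classes, across pairs that share their libraries and, in runs of 3 or more, their peaks. Both partners were among the stronger 50% in 17.5% of close pairs and in 24.3%, 24.2% and 28.6% of pairs in the wider classes.

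Among pairs called as separate peaks in both replicate lists, those with the highest weaker partner are described next. Their separate calling in each replicate was thus fixed by the choice. The first lay at chromosome I 1066845 to 1067569 and 1067876 to 1068839, 306 bp apart. Its left peak had strengths of 108 (replicate 1), 105 (replicate 2) and 109 (combined), and its right peak had 49.7, 117 and 137. The left peak was thus the stronger in replicate 1 and the right peak in replicate 2.

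The second pair was at chromosome III 7498008 to 7498882 and 7499353 to 7499896, 470 bp apart. Its left peak had strengths of 101 (replicate 1), 134 (replicate 2) and 120 (combined), and its right peak had 82.9, 95.4 and 94.7. The left peak was the stronger in all 3 lists. The third lay at chromosome IV 15471303 to 15471860 and 15472347 to 15472802, 486 bp apart. It was more even than the first and second in the combined list. Its left peak had strengths of 92.0, 93.5 and 101 in the same order of lists, and its right peak had 74.5, 79.5 and 89.3.

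Of the 12 pairs with the highest weaker partner among those separate in both lists, 6 were on chromosome III, 4 on I, 1 on IV and 1 on V. The weaker partner had a combined strength between 42.2 and 109 in these 12 pairs, and the ratio of partners ran from 1.05 to 4.36. Both peaks of the pair at chromosome III 1923276 to 1924087 and 1924825 to 1925736 belonged to a run whose next peak, at 1926069 to 1926906, formed another of the 12 pairs. Chromosome V gave the pair at 1195824 to 1196489 and 1197002 to 1197996, with combined strengths of 50.5 and 217. On chromosome II the best pair, at 591714 to 592369 and 593035 to 593505, had combined strengths of 35.0 and 32.9. On X it was at 2687135 to 2687575 and 2688523 to 2688908, with combined strengths of 20.9 and 17.0, replicate 1 strengths of 7.28 and 4.29 and replicate 2 strengths of 14.2 and 13.4. The best pair on X was the weakest of the 6 chromosomes' best pairs. It was drawn from the fewest pairs, 16, and from weaker peaks. Median strength was 5.89 for narrow peaks on X and 13.1 for autosomal ones.

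At the other extreme stood pairs of a very strong and a barely called peak. The largest ratio, 67.2, belonged to chromosome IV 9403079 to 9403260, strength 2.70, and 9403558 to 9404363, strength 182. The strong partner had 146 in replicate 1 and 161 in replicate 2, and the weak partner overlapped no peak in either list. The weak partner was likewise absent from both lists in the pairs with ratios of 65.4 (chromosome II 10798252 to 10799161 and 10800073 to 10800331), 63.8 (chromosome IV 8686563 to 8686670 and 8687634 to 8688306) and 63.0 (chromosome V 5203337 to 5203678 and 5203943 to 5204790). In the pair with the next ratio, 55.5, at chromosome IV 2676190 to 2676966 and 2677348 to 2677420, the weak partner appeared in replicate 2 alone, with a strength of 2.61. In 4 of these 5 pairs the weak partner was therefore present in the combined list only.

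The closest pairs were even in some cases and uneven in others. Of the 5 pairs with the smallest gaps, from 202 to 208 bp, ratios were 1.35, 10.4, 1.47, 6.35 and 1.01. The closest, at chromosome I 6459365 to 6459953 and 6460156 to 6461121, had combined strengths of 40.5 and 54.9, replicate 1 strengths of 6.89 and 9.16 and replicate 2 strengths of 31.9 and 50.7. In steps of gap from 200 to 399, 400 to 599, 600 to 799 and 800 to 999 bp, the median ratio was 3.14, 3.33, 3.26 and 4.50.

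The next comparison asked whether paired peaks were found in the single replicates. An overlapping peak (at least 1 bp) was present in the replicate 1 list for 430 of 815 paired peaks, or 52.8% (exact Clopper-Pearson 95% interval 49.3 to 56.2), and for 2289 of 4101 unpaired peaks, or 55.8% (54.3 to 57.3), where 55.3% of all narrow peaks had one. In the replicate 2 list the shares were 78.4% (75.4 to 81.2) of paired and 84.1% (82.9 to 85.2) of unpaired peaks, with 83.1% over all narrow peaks. Both lists held 411 paired peaks, or 50.4% (46.9 to 53.9), and 2240 unpaired peaks, or 54.6% (53.1 to 56.2), with 53.9% over all narrow peaks. Neither list held 157 paired peaks, or 19.3% (16.6 to 22.1), and 604 unpaired peaks, or 14.7% (13.7 to 15.9), with 15.5% over all narrow peaks. These intervals cover counting error only and treat neighbouring peaks as independent, so they are too narrow.

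The difference in presence, -4.19 percentage points over all narrow peaks, was not kept among peaks of like strength. Within the 4 groups of narrow peaks by strength, the share present in both lists was 0% of 223 paired peaks (at most 1.64%) and 0.895% of unpaired peaks in the weakest group. It was 27.4% (21.7 to 33.7) of paired and 24.6% (22.0 to 27.4) of unpaired peaks in the second, 91.3% (86.5 to 94.9) of paired and 89.5% (87.5 to 91.3) of unpaired peaks in the third, and 100% of both in the strongest. Averaged over these groups in the proportions of the paired peaks, the difference was 0.96 percentage points, with the sign turned round. The weakest and strongest groups held 27.4% and 20.9% of paired peaks and 24.5% and 25.8% of unpaired peaks.

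**Figure D2:**
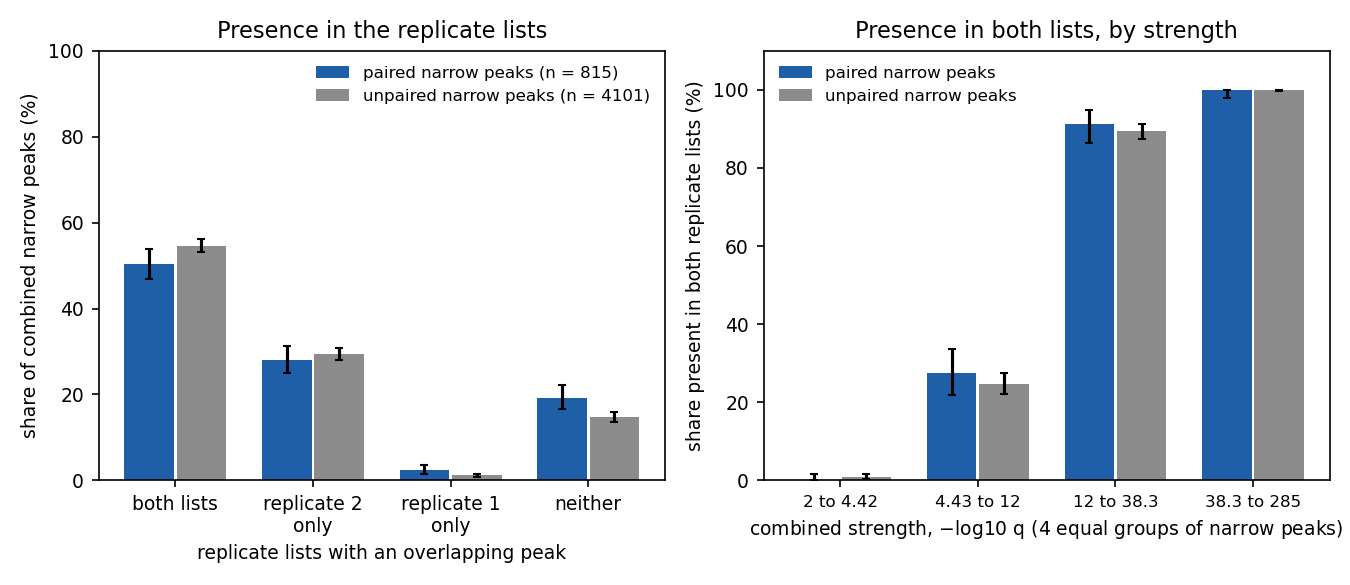
Left, share of the 815 paired and 4101 unpaired narrow peaks of the combined list that overlap a peak in both replicate lists, in replicate 2 only, in replicate 1 only or in neither; right, share present in both lists in 4 groups of equal size by combined strength (−log10 q). Bars are percentages with exact 95% intervals; 50.4% of paired and 54.6% of unpaired peaks are in both lists, and within strength groups the intervals of paired and unpaired peaks overlap.

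The partners of a pair differed widely in how often the replicates held them. The stronger partner was in the replicate 1 list in 330 of 440 pairs, or 75% (70.7 to 79.0), and the weaker in 132, or 30.0% (25.8 to 34.5). In the replicate 2 list it was 422 for the stronger, or 95.9% (93.6 to 97.6), and 267 for the weaker, or 60.7% (55.9 to 65.3). The roles were set on the combined strength, so a difference in this direction is built in. In 105 pairs (23.9%, 19.95 to 28.1) the stronger partner was in both lists and the weaker in neither, and in 11 pairs (2.50%) neither partner was in any replicate list. In the 3 wider gap classes, from near to far, the weaker partner was in the replicate 1 list in 32.9%, 32.1% and 34.7% of pairs and in the replicate 2 list in 66.8%, 68.2% and 72.9%. For the stronger partner it was 79.9%, 78.2% and 80.7% in replicate 1 and 95.8%, 95.4% and 96.1% in replicate 2. A wide split between partners was thus not particular to close pairs. The 105 and 11 pairs are given without shares for wider gaps, so they do not set close pairs apart.

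Both partners were called as separate peaks in both replicates in 107 of 440 pairs, or 24.3% (20.4 to 28.6), where the same held for 30.2% of all adjacent narrow pairs. By gap class the share was 24.3% for the close pairs, 29.0% (24.5 to 33.8) from 1000 to below 2000 bp, 29.9% (26.7 to 33.3) from 2000 to below 5000 bp and 32.8% (29.4 to 36.3) from 5000 to below 10000 bp. The median weaker partner also differed, with strengths of 4.41, 4.99, 5.06 and 5.83 in the same order. Separation was not compared among pairs of like strength. Within the close pairs, the steps from 200 to 399, 400 to 599, 600 to 799 and 800 to 999 bp gave 22.1%, 28.2%, 24.3% and 23.1%. The 107 pairs had a median weaker partner of 18.1, against 3.60 in the other 333 pairs. This contrast follows from the selection, since weak peaks were seldom in both lists. The median gap was 588 bp in the 107 pairs and in the others. They comprised 201 paired peaks, or 24.7% of all paired peaks, in 94 runs. A further 155 pairs were separate in replicate 2 but not in replicate 1, and 11 pairs were separate in replicate 1 but not in replicate 2. Replicate 1 alone separated 26.8% of close pairs, against 31.9%, 31.2% and 33.2% in the wider classes. For replicate 2 alone it was 59.5%, against 65.8%, 67.1% and 72.2%. Of the 375 runs, 85 had every peak in both replicate lists, 205 had some and 85 had none. Over all narrow peaks, 53.9% were in both lists.

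A replicate rarely covered a close pair with a single peak. No replicate 1 peak and only 2 replicate 2 peaks spanned both partners. They were a 635 bp peak at chromosome II 15008314 to 15008948, strength 7.98, and a 1031 bp peak at chromosome V 12300183 to 12301213, strength 12.3. The combined pairs under them had gaps of 209 and 208 bp, with strengths of 3.71 and 7.40 on II and 18.1 and 2.86 on V.

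The reverse was more common. Applied to the replicate lists themselves, the rule gave 281 paired peaks in 149 pairs in replicate 1 and 523 in 277 pairs in replicate 2, or 9.59% and 12.3% of narrow peaks (10.9% ± 1.90, SD, n = 2), against 16.6% in the combined list. Of the 149 replicate 1 pairs, 126 overlapped separate combined peaks, 22 lay under a single combined peak and 1 had just 1 partner there. Of the 277 replicate 2 pairs, 258 overlapped separate combined peaks, 16 lay under a single one and 3 had just 1 partner there. Both combined peaks were themselves paired for 110 of the 126 and 245 of the 258. An example picked after seeing the values is chromosome I, where replicate 1 had peaks at 535170 to 535991 (strength 122) and 536285 to 537258 (strength 73.7), and the combined list had a single 2298 bp peak at 535141 to 537438 (strength 177).

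Where both replicates separated the partners, they mostly ranked them alike, as they did for narrow neighbours at any distance. The same partner was the stronger in both replicates in 95 of 107 pairs, or 88.8% (81.2 to 94.1), where 90.1% of all adjacent narrow pairs separate in both lists did so. The wider gap classes gave 89.2%, 90.9% and 88.9%. Across the 107 pairs, log2 of the left-to-right strength ratio in replicate 1 and replicate 2 had a Spearman's rho of 0.91 and a Pearson's r of 0.93, a description across pairs from the same libraries, some of which share a peak. The 12 pairs whose order differed had a median ratio of 1.33 in the combined list, and 2.59 at most, against a median of 2.76 for the 95 others. The combined list rests on both replicates, so a low combined ratio in pairs of opposite order is partly built in. The median ratio within the 107 pairs was 2.46 in the combined list, 3.02 in replicate 1 and 3.42 in replicate 2.

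**Figure D3:**
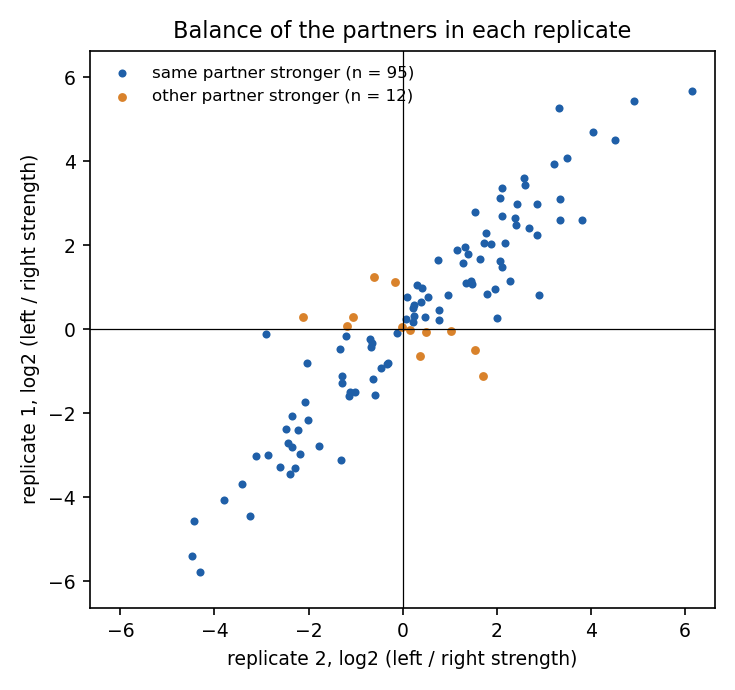
Log2 of the left-to-right strength ratio in replicate 1 (vertical) against replicate 2 (horizontal) for the 107 pairs called as separate peaks in both lists; each point is a pair and lines mark equal partners. The 95 pairs with the same stronger partner fall in the lower left and upper right, and the 12 others in the upper left and lower right.

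The 8 runs of 4 or 5 peaks lay on chromosomes II, III, IV and V, with 3 each on III and IV. The strongest was on III, with 5 peaks between 3065816 and 3070463. Strong and weak peaks alternated along it, with combined strengths of 35.5, 2.38, 63.6, 4.13 and 115 from left to right. Replicate 1 held the 3 strong peaks at 9.05, 47.6 and 54.4, and replicate 2 held them at 24.2, 81.9 and 109 and the fourth at 2.30.

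Another 5-peak run on III, from 3309002 to 3312401, was weak throughout, with combined strengths from 2.07 to 6.30. Replicate 1 held none of its peaks and replicate 2 held 3 of them. The 5-peak run on V, from 14847209 to 14851632, had strengths from 3.34 to 10.9, and 2 of its peaks were in both lists.

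The run on IV from 4176449 to 4180388 was the only one of the 8 with every peak in both lists. Its combined strengths were 27.6, 11.0, 7.45 and 22.2, against 5.74, 2.57, 3.64 and 3.97 in replicate 1 and 19.9, 7.26, 2.48 and 18.5 in replicate 2. On IV from 7044706 to 7048233, strong peaks of 73.2 and 33.2 stood at both ends of a pair of weak ones of 2.52 and 2.15 found in neither replicate. On IV from 17087286 to 17090256, a peak of 67.3 was followed by 3 of 2.23 to 3.15, again in neither replicate. The run on II from 13187056 to 13190692 began with a peak of 45.5 followed by peaks of 7.25, 8.69 and 2.05, and that on III from 7708942 to 7712202 had strengths of 3.65, 72.2, 12.4 and 17.8.

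**Figure D4:**
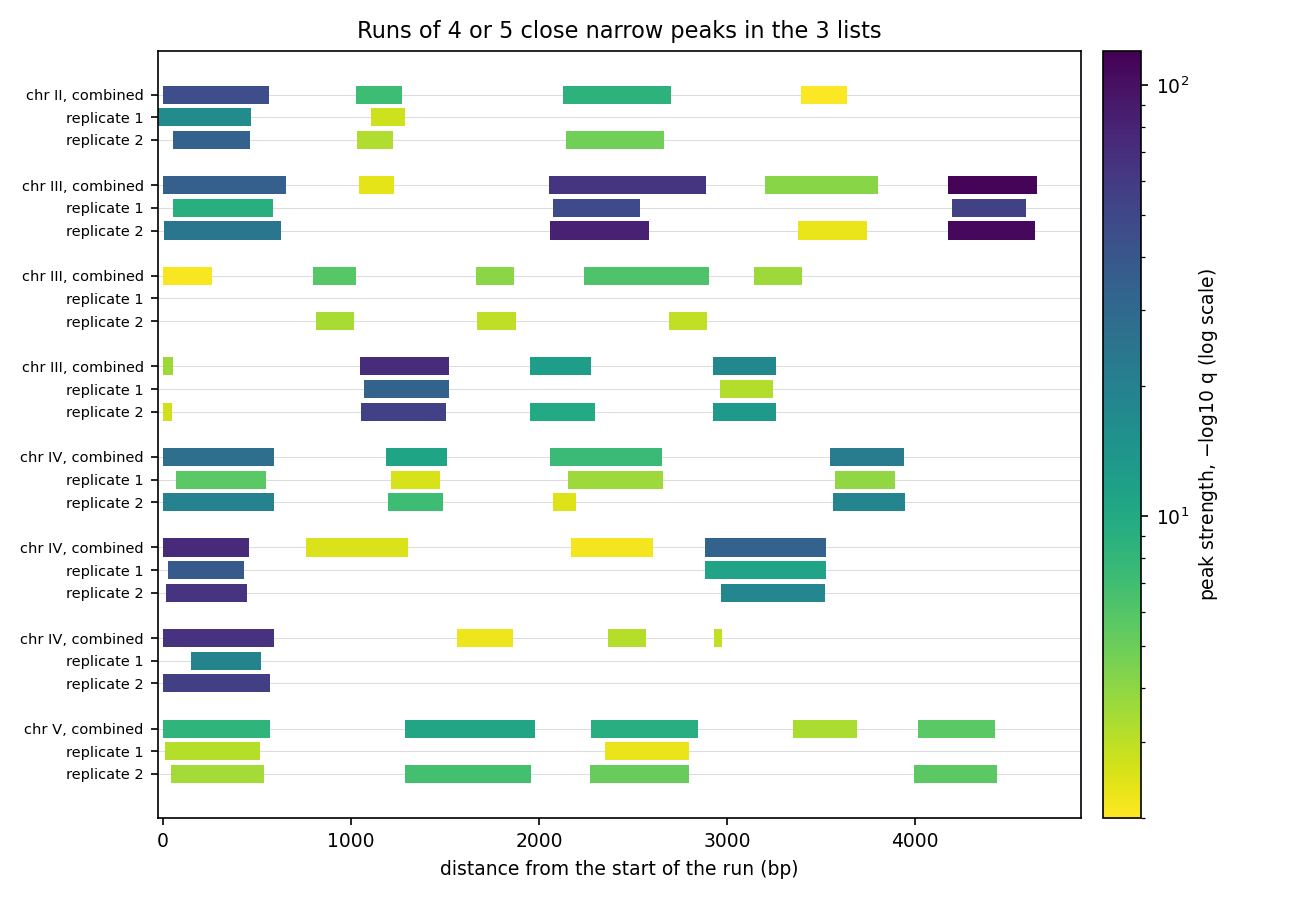
The 8 runs of 4 or 5 close narrow peaks, drawn to scale by distance (bp) from the start of each run, with the peaks of the combined, replicate 1 and replicate 2 lists on separate lines and colour showing strength (−log10 q, log scale). In 1 run on IV every combined peak has a counterpart in both replicates, while most runs have 1 or more peaks in the combined list alone.

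Paired peaks were unevenly shared among chromosomes. Chromosome IV held 204 of the 815, or 25.03% (22.1 to 28.2), against 18.2% (17.0 to 19.4) of unpaired peaks. Chromosome III held 22.7% (19.9 to 25.7) of paired and 19.3% (18.1 to 20.5) of unpaired peaks, I held 17.1% (14.5 to 19.8) and 19.9% (18.7 to 21.2), II held 15.6% and 16.0%, and V held 15.7% and 15.5%. X held 32 paired peaks, or 3.93% (2.70 to 5.50), against 453 unpaired peaks, or 11.0% (10.1 to 12.05), where 9.87% of all narrow peaks lay on X. With the rule applied to the replicate lists, X held 2.14% of paired and 9.32% of unpaired peaks in replicate 1 and 2.68% of paired and 10.5% of unpaired peaks in replicate 2.

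As a share of the narrow peaks of each chromosome, pairing was lowest on X and highest on IV in every list. On X, 32 of 485 narrow peaks were paired, or 6.60% (4.56 to 9.19), against 17.7% (16.6 to 18.8) of the 4431 autosomal ones. The autosomes ran from 14.5% (12.4 to 16.9) on I through 16.2% on II, 16.7% on V and 19.0% on III to 21.5% (18.9 to 24.2) on IV. In the replicate lists X had 2.37% and 3.44%, below every autosome, whose shares ran from 4.35% on II to 16.3% on IV in replicate 1 and from 10.1% on I to 16.9% on IV in replicate 2. Where peaks are dense, more of them have a close neighbour, and X had the lowest density, with 27.5 narrow peaks per Mb, against 36.6 on V, 51.4 on II, 54.4 on IV, 63.9 on I and 70.8 on III. In the combined list chromosome I, with the next to highest density, had the lowest share among autosomes, and V, with the next to lowest density, had 16.7%. In the replicate 1 list the lowest autosomal share was on II, and I had 9.14% and V 9.01%. The part of peak density in these shares, on X or on any other chromosome, was not tested.

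**Figure D5:**
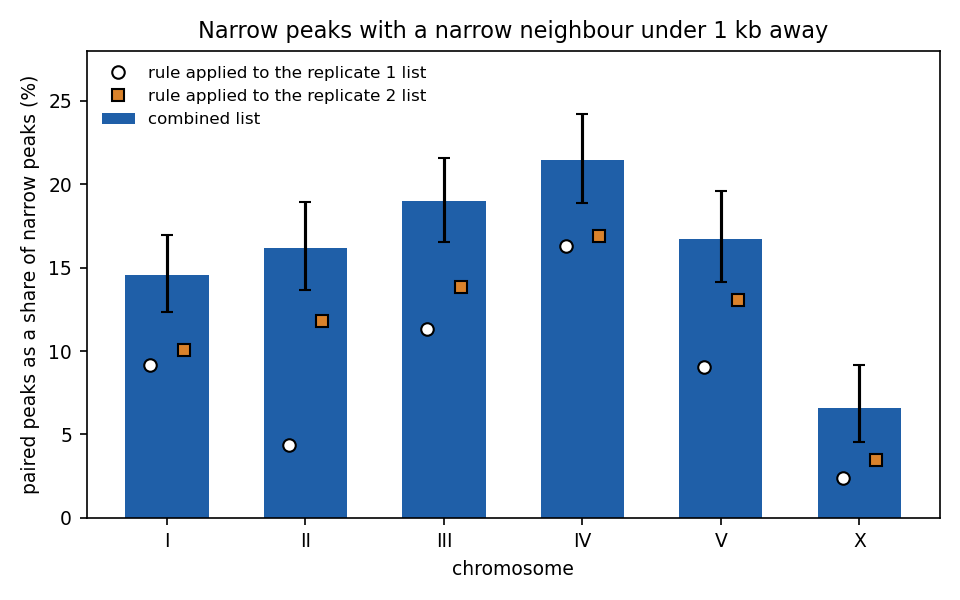
Paired peaks as a share (%) of the narrow peaks of each chromosome, in the combined list (bars, exact 95% intervals) and with the rule applied to the replicate 1 (circles) and replicate 2 (squares) lists. X is lowest, at 6.60% in the combined list, and IV highest, at 21.5%.

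The X pairs were few and weak. The 32 peaks formed 16 pairs in 16 runs, all of 2 peaks, with a median strength of 5.70, against 9.92 for autosomal paired peaks and 5.89 for unpaired peaks on X. Both replicates held 11 of them, or 34.4% (18.6 to 53.2), against 42.8% (38.2 to 47.5) of unpaired peaks on X, and 3 of the 16 pairs were separate in both lists. On chromosome IV, 118 of 204 paired peaks (57.8%, 50.7 to 64.7) were in both lists, against 52.4% (48.8 to 56.0) of unpaired peaks there, and 37 of 112 pairs (33.0%) were separate in both. On chromosome II, 61 of 127 paired peaks (48.0%, 39.1 to 57.1) were in both lists, against 59.3% (55.4 to 63.1) of unpaired peaks there, and 11 of 66 pairs (16.7%) were separate in both, and median strength was 7.84 for paired and 16.1 for unpaired peaks. On I, III and V the share in both lists was 48.9%, 50.3% and 46.9% of paired and 53.7%, 61.4% and 53.5% of unpaired peaks, so that IV was the only chromosome with the larger share among paired peaks. Paired peaks had a lower median strength than unpaired ones on each of the 6 chromosomes.

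Along the autosomes, a smaller share of paired than of unpaired peaks lay in the centre in all 3 lists. The size of the difference depended on the list. The centre of an autosome was taken to begin at 25% and to end at 75% of the span up to its last peak. In the combined list 55.8% (52.3 to 59.3) of autosomal paired peaks and 57.8% (56.1 to 59.4) of unpaired peaks lay in the centre, where 57.4% of all autosomal narrow peaks did. With the rule applied to the replicate lists the shares were 47.3% of paired and 59.2% of unpaired peaks in replicate 1 and 50.9% of paired and 57.9% of unpaired peaks in replicate 2, or 49.1% ± 2.55 for paired and 58.6% ± 0.89 for unpaired peaks (SD, n = 2 lists). With gaps up to 2000 bp the difference in the combined list turned to 1.83 percentage points. The autosomes differed in direction in the combined list. The share in the centre was lower for paired peaks on II, with 41.7% (33.0 to 50.8) of paired and 55.3% (51.4 to 59.2) of unpaired peaks, on I, with 50.4% (41.8 to 58.9) and 57.2% (53.7 to 60.6), and on V, with 63.3% (54.3 to 71.6) and 65.3% (61.5 to 69.0). It was higher for paired peaks on III, with 64.3% (57.0 to 71.2) of paired and 59.1% (55.6 to 62.6) of unpaired peaks, and on IV, with 55.9% (48.8 to 62.8) and 52.7% (49.0 to 56.3). The densest windows of 100 kb, picked after seeing the counts, were on III (7700001 to 7800000) and IV (4000001 to 4100000) and held 9 paired peaks each.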

How the data were processed

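Each peak list gives positions on WormBase WS220, per the file headers, and 1 q-value per peak, made by the authors with PeakSeq per the source column of the deposited files. Header comments record a liftover from another build, which changed the structure of 7 combined peaks, 1 of them paired. The aligner, the PeakSeq version, the use of input and the way replicates were combined are not stated in the sources at hand. Read depth is unknown, and the input samples entered no comparison. Strength is −log10 q. Lists were sorted, the pairing rule applied and lists matched by an overlap of at least 1 bp, keeping the strongest overlapping peak, with Python 3.11.15, pandas 2.3.3 and scipy 1.17.1. The pairing and matching code was tested on simulated lists. Shares have exact 95% intervals (Clopper-Pearson). The labels do not say whether separate cultures were used, so replicate spread may be technical.

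The members, comparisons and rules were chosen with earlier results of these data known. Pairs are named where they had the highest weaker partner (12 separate in both lists, and 1 per chromosome), the 5 largest ratios, the 5 smallest gaps, runs of 4 or more peaks, replicate peaks over both partners and the edges of the rule. Peaks were assigned to no gene, exon or intron, and no sequence is shown, since a genome and genes of WS220 were not used here.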

Additional observations from a re-analysis of the deposited data

How the results depend on the processing

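No test was run on any result, so a value is called moved when it left the SD between the replicate lists or, for presence and separation, the 95% interval. Of 67 alternative values over 8 results, 34 stayed within that spread, 29 moved and 4 changed sign.

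The paired share of narrow peaks, 16.6%, was 7.12% with gaps under 500 bp and 30.3% with gaps under 2000 bp. It was 14.1% with widths under 700 bp, 20.2% with no limit on width and 6.39% among the stronger 50% of peaks. Each of these limits changes how many peaks qualify. In the replicate 1 list alone the share was 9.59%, and in the replicate 2 list alone 12.3%. The median ratio of partners, 3.43, was 3.16, 3.60, 3.13, 3.75 and 2.28 under the first 5 of these settings. It was 3.08 to 3.12 in the single replicate lists and 3.55 in runs of exactly 2 peaks. The difference in median strength, -2.87, was -1.38 with gaps under 2000 bp, -4.54 in the stronger 50% and -3.43 to -1.94 in the single replicate lists. It was 14.9 with only the strongest peak of each run, a choice that by construction drops weak partners.

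The presence difference, -4.19 points, was -0.53 in the stronger 50%, 0.96 within 4 strength groups and 20.6 with the strongest peak of each run. The share of pairs separate in both lists, 24.3%, was 20.3% with widths under 700 bp and 92.4% in the stronger 50%. Most peaks of the stronger 50% were in both lists, so the 92.4% and the -0.53 points were largely set by that choice. Pairs were formed anew among those peaks, giving 79. The X difference, -7.12 points, was -5.08 with gaps under 500 bp, -7.91 with gaps under 2000 bp and -5.84 with no limit on width. It was -3.52 in the stronger 50%, -7.84 to -7.19 in the single replicate lists and -7.75 within strength groups. Its sign was kept under each. The centre difference, -1.95 points, was 1.83 with gaps under 2000 bp, -8.11 in the stronger 50% and -11.93 to -7.05 in the single replicate lists. The cause was not tested.

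Runs of exactly 2 peaks were chosen after seeing the data. Read numbers are unknown, so limits set by depth could not be judged. No paired analysis was possible because the results come from no test and the input samples were not analysed here.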
